A study of Arabidopsis thaliana with 8 samples.

Results

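Genes carrying ChIP-seq peaks of the GATA factors GNC and CGA1 were compared in Arabidopsis thaliana rosette leaves. A peak was kept for a factor when it overlapped a peak of the other replicate list of the same line by 1 bp or more, which left 4734 regions for GNC and 1918 for CGA1. A protein-coding gene was assigned a peak when the peak met the stretch from 1 kb upstream of the transcription start site (TSS) to 1 kb past the transcript end. Of 27444 protein-coding genes on the 5 nuclear chromosomes, 7053 had a peak of at least one factor. They fell into 4777 genes with a GNC peak only, 1758 with a CGA1 peak only and 518 with both factors.

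Chromatin came from whole rosette leaves of 3-week-old Col-0 plants grown in long days. One line overexpressed myc-tagged GNC and the other overexpressed myc-tagged CGA1, and DNA was pulled down with an anti-myc antibody and set against an INPUT library of sonicated chromatin. Each line gave 2 IP libraries, labelled as biological replicates. Both lines carry the factor above its natural level, so they model overexpression. The promoter that drives each transgene is not given in the sources used here, and no untagged or IgG library was analysed here.

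The lists of a line are not independent. All 4734 GNC regions had identical edges in both lists, and 46.5% of the CGA1 regions did. Each line was therefore treated as 1 sample. No test between lines was possible, and the 95% Wilson intervals given with shares cover counting error only. The lists held 5745 and 5722 peaks for GNC and 2456 and 2399 for CGA1. Their lowest score lay between 50 and 50.01, on the scale of the peak caller, where the score is the p-value of the IP against INPUT as minus 10 times its log10. The study shows the reads of its samples in a supplementary figure, but read depth was not used here. The peak numbers of the lines differ, and how much of that comes from the antibody, the depth or the factor cannot be told apart.

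GATA factors are zinc finger proteins that recognise short sites with a GATA core, and GATC is also bound by some plant members. GNC and CGA1 are paralogs of the B class and are known for their part in greening, chlorophyll formation and chloroplast development. CGA1 is induced by cytokinin and GNC by nitrate, and both are linked to gibberellin, auxin and flowering time.

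The sequences on which both factors gave a peak show what the shared regions look like. Genes with overlapping peaks were ordered by the lower of the mean GNC and the mean CGA1 score, and the first 10 with a gene symbol were CCoAOMT1, RGS1, HUB2, LCR67, CKX6, CRN, SFC, CTEXP, AGL94 and PUM9. The stretches printed are those of their overlaps that lie outside untranslated exons and are at least 60 bp long, from the plus strand of TAIR10.1, at most 300 bp each. GATA or its complement TATC and GATC are in capitals.
HUB2: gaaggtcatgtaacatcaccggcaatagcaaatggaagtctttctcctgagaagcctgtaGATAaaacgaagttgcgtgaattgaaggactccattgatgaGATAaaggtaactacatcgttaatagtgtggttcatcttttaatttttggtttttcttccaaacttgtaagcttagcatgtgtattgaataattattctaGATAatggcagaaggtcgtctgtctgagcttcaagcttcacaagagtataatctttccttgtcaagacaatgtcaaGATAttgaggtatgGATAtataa
CTEXP: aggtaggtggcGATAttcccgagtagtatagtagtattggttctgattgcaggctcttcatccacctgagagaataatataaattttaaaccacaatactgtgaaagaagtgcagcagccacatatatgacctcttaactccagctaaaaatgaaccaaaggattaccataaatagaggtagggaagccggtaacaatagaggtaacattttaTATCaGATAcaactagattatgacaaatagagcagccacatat
AGL94: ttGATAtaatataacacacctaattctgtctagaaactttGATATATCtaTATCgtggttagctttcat
LCR67: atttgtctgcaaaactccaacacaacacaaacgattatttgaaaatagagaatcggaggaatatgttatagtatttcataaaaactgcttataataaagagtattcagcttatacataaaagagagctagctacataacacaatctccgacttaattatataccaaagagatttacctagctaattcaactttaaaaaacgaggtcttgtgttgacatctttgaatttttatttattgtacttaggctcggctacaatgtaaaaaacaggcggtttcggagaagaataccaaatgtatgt
RGS1: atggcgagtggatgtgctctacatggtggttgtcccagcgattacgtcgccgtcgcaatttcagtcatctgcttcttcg
The HUB2 stretch (chr1:20608691-20608990) held 5 GATA matches on either strand, and the one at CTEXP (chr2:16991914-16992169) held 3. The short AGL94 stretch (chr1:26146532-26146600) held 4 within 69 bp. LCR67 (chr1:28472921-28473220) held no GATA and no GATC in 300 bp, and neither did the 79 bp at RGS1 (chr3:9532883-9532961). A shared peak could therefore lie on sequence with several GATA cores or, at LCR67, with none in the part shown.

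The question of whether both factors occupy the same genes was answered first by counts. A GNC peak was present at 19.3% of all protein-coding genes and a CGA1 peak at 8.29%. GNC peaks only were found at 17.4% of genes, CGA1 peaks only at 6.41%, and both at 1.89%. Of the 2276 genes with a CGA1 peak, 22.8% (21.1 to 24.5%) also had a GNC peak, against 18.98% (18.5 to 19.5%) of the 25168 genes without a CGA1 peak. Of the 5295 genes with a GNC peak, 9.78% (9.01 to 10.6%) also had a CGA1 peak, against 7.94% (7.59 to 8.30%) of the others. Sharing was thus more frequent than among genes lacking the other factor by under 4 percentage points in both directions. The 518 genes made up 22.8% of the CGA1 set and 9.78% of the GNC set. When only the 1918 highest-scoring GNC regions were used, to match the number for CGA1, 223 genes had both factors. These were 9.80% of the CGA1 genes, against 8.32% of genes without a CGA1 peak. With a score of at least 100 in both lists, 7 genes had both factors, or 4.19% of the CGA1 genes against 2.19% of the others.

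Part of the single-factor calls rested on the demand for 2 lists. Among the 1758 CGA1-only genes, 193 (11.0%) had a GNC peak in one GNC list. Among the 4777 GNC-only genes, 267 (5.59%) had a CGA1 peak in one CGA1 list. Over all genes, the single lists gave 6328 and 6310 genes with a GNC peak, against 5295 with the demand for both. For CGA1 they gave 2933 and 2845, against 2276. The demand thus also removed calls at genes without the other factor. Whether the shares of 11.0 and 5.59% exceed those of such genes was not tested. The nearest GNC peak lay a median of 7797 bp outside the window of a CGA1-only gene, and 9.10% of these genes had one within 1 kb of it. For GNC-only genes the nearest CGA1 peak lay at a median of 18834 bp, with 3.50% within 1 kb. A peak could serve several genes, since 41.4% of the GNC regions at a gene and 37.2% of the CGA1 regions met the windows of 2 or more genes. Of the 518 genes with both factors, 141 shared a GNC peak with another gene of the group.

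At most genes with both factors the peaks lay apart. Overlapping peaks were found at 114 of the 518 genes (22.0%, 18.7 to 25.8%), with a median of 199.5 bp between centres. The other 404 genes (78.0%) had separate peaks, whose centres were 343 to 9729 bp apart with a median of 1726 bp. Of these, 103 carried both peaks in the gene body, 17 both upstream and 10 both downstream. Another 114 had one factor upstream and the other in the body, 101 one in the body and the other downstream, and 59 had the factors on opposite flanks. GNC was the one nearer the TSS at 222 of the separate genes and CGA1 at 182. Counted over regions, whatever the gene, 99 CGA1 regions overlapped a GNC region, which is 5.16% of the CGA1 regions and 2.09% of the GNC regions. The windows spanned genes of median length 2777.5 bp with 1 kb on each side. The regions had median widths of 383 bp for GNC and 409 bp for CGA1, which leaves room for separate peaks. The overlap that random placement would give was not computed, so these counts are descriptive.

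**Figure D1:**
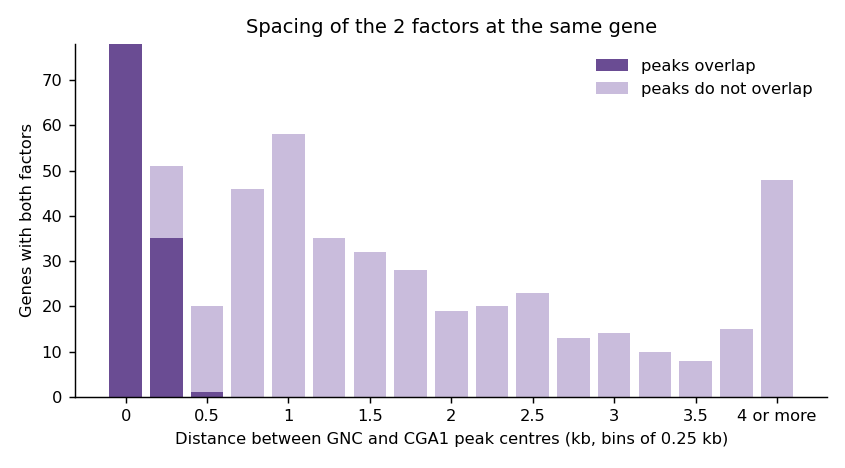
Number of genes with both factors (vertical axis) by the distance between the centres of the closest GNC and CGA1 peaks (horizontal axis, bins of 0.25 kb, the last bin holding 4 kb or more). Dark bars are the 114 genes whose peaks overlap and pale bars the 404 whose peaks do not, which spread up to 9729 bp.

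The scores of regions at single-factor genes and at genes with both factors were alike. GNC regions at GNC-only genes had median scores of 69.8 and 69.3 in the replicate lists, and those at genes with both factors 70.0 and 68.8. CGA1 regions at CGA1-only genes had medians of 66.2 and 65.3, and those at genes with both factors 67.7 and 65.7. The regions on which the factors overlapped had GNC medians of 73.3 and 68.7 and CGA1 medians of 68.4 and 65.2. The medians at genes with both factors, and those of the overlapping regions, thus differed from those at single-factor genes by less than 4 score units in every list. A region that met genes of both kinds was counted in both sets, so the sets share members.

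The overlap with the highest scores stood apart from the rest. It lay beside AT2G01023, an uncharacterized gene model of 120 bp. The GNC peak covered chr2:9609-10328 and the CGA1 peak chr2:9824-10268, so they overlapped by 445 bp, with GNC scores of 556.4 and 646.5 and CGA1 scores of 318.3 and 610.7. Annotated ribosomal RNA genes end 4096 and 3664 bp before the GNC peak on the same chromosome. Whether repeated ribosomal DNA has a part in these scores was not tested. Every other overlap at a gene had a lower mean score of at most 130.8, the value at CCoAOMT1.

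CCoAOMT1 encodes a caffeoyl-CoA O-methyltransferase of lignin synthesis. Its peaks overlapped by 308 bp in the 3′ UTR, with GNC scores of 158.5 and 148.9 and CGA1 scores of 133.9 and 127.8. RGS1, a regulator of G-protein signalling that acts in sugar responses, had overlapping peaks at its 5′ UTR with GNC scores of 94.2 and 114.4 and CGA1 scores of 80.2 and 86.3. HUB2, an E3 ligase for monoubiquitination of histone H2B, scored 75.4 and 88.1 for GNC, whose centre lay in a coding exon, and 107.7 and 88.5 for CGA1, whose centre lay in an intron. CCoAOMT1 was the gene of these with all scores above 100, whereas HUB2 reached 100 only in a CGA1 list.

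CKX6 belongs to the cytokinin oxidases, which break down cytokinin. GNC scored 115.6 and 127.2 and CGA1 80.2 and 74.4 at an overlap of 237 bp just past its transcript end, which also lay in the 3′ UTR of the neighbouring RNA-binding protein gene AT3G63450. LCR67, a defensin-like cysteine-rich peptide gene, had peaks past its end with scores of 102.0 and 80.9 for GNC and 80.7 in both CGA1 lists. One pair of peaks, 352 bp in overlap, served CRN and SFC. GNC scored 104.1 and 87.9 there and CGA1 68.3 and 85.0. CRN encodes a membrane pseudokinase of CLAVATA signalling and carried the peaks in its 5′ UTR, while SFC, an ARF GTPase-activating protein of vein patterning, carried them past its end.

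CTEXP, named in the annotation as a kinase family protein with ARM repeats, scored 79.7 and 94.96 for GNC and 76.7 and 73.4 for CGA1 in the gene body. AGL94, a MADS-box gene, scored 78.0 and 70.5 for GNC and 84.8 in both CGA1 lists, with both centres in introns. PUM9, an RNA-binding protein of the Pumilio family, scored 91.6 and 89.97 for GNC upstream of the TSS and 67.7 and 79.0 for CGA1 in a coding exon. Over all 114 genes with overlapping peaks, both centres lay in the body at 43, downstream at 29 and upstream at 26. The centres lay in different parts at the other 16. The upstream flank made up 18.6% of the windows of all genes with both factors. Whether the overlaps upstream exceed that share was not tested. These counts are of genes, which rest on 86 overlapping pairs of regions. The same pair can thus count in different parts of neighbouring genes.

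The highest-scoring genes with a symbol in the single-factor groups belonged to varied processes. Genes were ordered by the lower of their scores in the replicate lists. LACS2, a long-chain acyl-CoA synthetase of cutin formation, came first among the GNC-only genes with scores of 231.8 and 204.1 past its transcript end. SPX2, an SPX-domain protein of phosphate signalling, scored 188.9 and 192.3 in a coding exon. The region at chr4 between SLOMO, an F-box gene, and PME44, a pectin methylesterase gene, scored 193.4 and 186.1 upstream of both. None of these 4 genes had a CGA1 peak in both lists.

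APL3, for a large subunit of ADP-glucose pyrophosphorylase in starch synthesis, scored 180.2 in both GNC lists at 253 bp upstream of its TSS. The disease resistance gene SNC1 scored 168.7 in both, at 87 bp upstream. SSI2, the stearoyl-ACP desaturase, scored 193.0 and 161.8 in an intron. The other GNC-only genes of the first 10 were AtSPO22, MOB1-like and emb1473, with scores between 161.9 and 200.7. They encode a protein with TPR repeats, a Mob1/phocein protein and a ribosomal protein of the L13 family.

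In the same order, PKT3 came first among the CGA1-only genes, with 223.9 and 207.1 in its 5′ UTR. It encodes the peroxisomal thiolase of fatty acid beta-oxidation. USP, for UDP-sugar pyrophosphorylase, scored 200.3 and 183.2 at 486 bp upstream of the TSS. THO5, a subunit of the THO complex of mRNA export, scored 181.6 and 174.8 in a coding exon. The inositol transporter gene INT3 scored 189.1 and 167.4 upstream, and PMDH1, a peroxisomal malate dehydrogenase gene, scored 203.9 and 160.0 in its 3′ UTR. PKT3 and PMDH1 thus both encode peroxisomal enzymes. The others of the first 10 were 5PTase14, GH9B16, VDAC2, APK4 and UBQ11, whose scores ran from 132.0 to 183.1. VDAC2, a voltage-dependent anion channel gene, and APK4, an APS kinase gene of sulphate assimilation, met the same region.

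Gene length differed more between shared and single-factor genes than between the factors. The median length from TSS to transcript end was 2412 bp (95% interval of the median 2371 to 2459 bp) for GNC-only genes and 2315.5 bp (2238 to 2411 bp) for CGA1-only genes. It was 2777.5 bp (2574 to 2909 bp) for genes with both factors and 1968 bp (1950 to 1990 bp) for genes with no peak. The median over all genes was 2078 bp. Genes with both factors had a median of 6 exons, those with one factor 5 and those with none 3. Single-exon genes made up 9.27% of the genes with both factors, 14.5% of GNC-only, 15.0% of CGA1-only and 20.6% of genes with no peak. The window over which peaks were gathered grows with the gene.

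**Figure D2:**
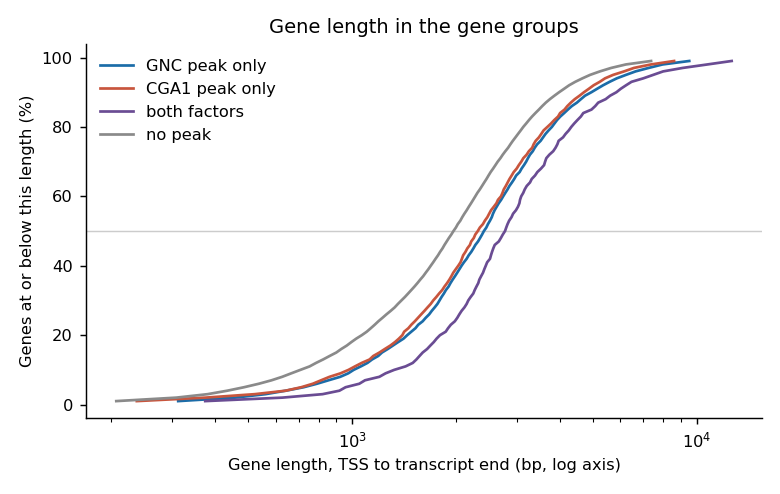
Cumulative percent of genes (vertical axis) at or below a gene length in bp (horizontal axis, logarithmic), for genes with a GNC peak only, a CGA1 peak only, both factors and no peak, at percentiles 1 to 99. The curves of the single-factor groups lie close together, with medians of 2412 and 2315.5 bp, between those of no peak at 1968 bp and both factors at 2777.5 bp.

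All genes were then split into 5 groups of equal number by length. The share with a GNC peak was 12.1, 15.8, 18.9, 22.3 and 27.4% from the shortest to the longest class. The share with a CGA1 peak was 5.17, 6.96, 8.18, 9.38 and 11.8%. The ratio of GNC to CGA1 genes stayed between 2.26 and 2.38 in all 5, so the shares of both factors climbed in proportion. Per Mb of gene window, GNC gave 46.5 to 51.6 peak-gene pairs and CGA1 18.5 to 20.8, with the lowest value of each in the longest class. Sharing was reread within the classes. Of the CGA1 genes, 13.7, 16.8, 21.2, 26.4 and 28.5% had a GNC peak, against 12.0, 15.7, 18.7, 21.9 and 27.3% of the genes without a CGA1 peak. The CGA1 genes were higher in all 5 classes, and their interval lay above the other share in the fourth class only (22.8 to 30.4%).

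**Figure D3:**
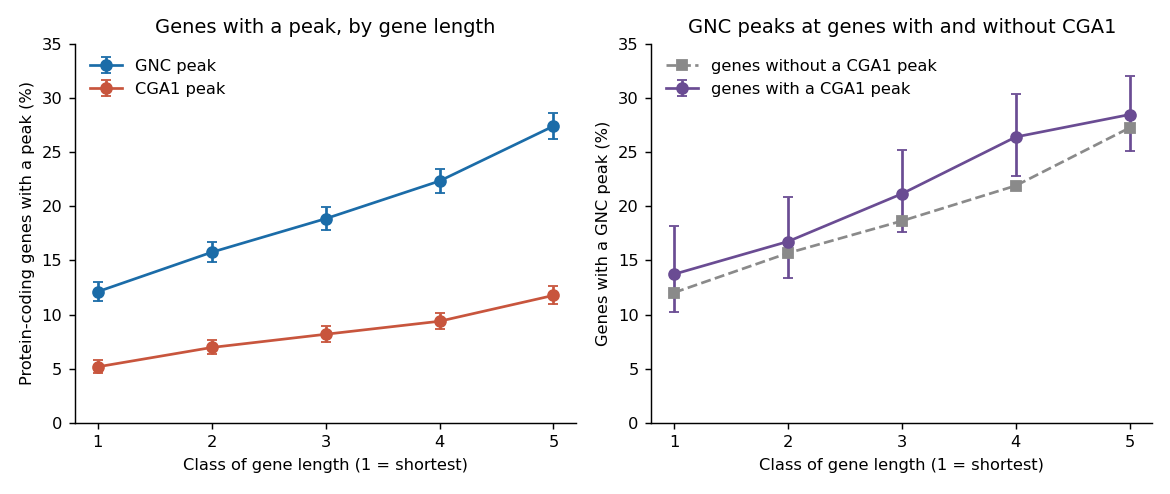
Left, percent of protein-coding genes with a GNC or a CGA1 peak (vertical axis) in 5 classes of gene length (horizontal axis, 1 the shortest), rising from 12.1 to 27.4% and from 5.17 to 11.8%. Right, percent with a GNC peak among genes with and without a CGA1 peak in the same classes, and bars are 95% Wilson intervals.

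Apart from coding exons, the intervals of GNC-only and CGA1-only genes met in every gene part compared. The centre of 26.8% (25.7 to 28.0%) of the GNC peaks at GNC-only genes lay upstream, 47.7% in the gene body and 25.5% downstream, counted over 5304 pairs of a peak and a gene. For the 1823 pairs of CGA1-only genes these shares were 29.0% (26.9 to 31.1%), 46.0% and 25.01%. At genes with both factors, GNC lay upstream in 26.3% and CGA1 in 23.96% of pairs, and in the body in 50.3 and 51.5%. The upstream flank itself made up 20.9% of the windows of GNC-only genes, 21.4% of those of CGA1-only genes and 18.6% of those with both. Pairs include peaks that reach into a window while their centre lies outside it.

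Counted once per region, 30.3% of the GNC regions at a gene (28.9 to 31.7%) and 30.7% of the CGA1 regions (28.5 to 32.9%) had their centre within 1 kb upstream of some TSS. Of all positions in gene windows, 28.6% lay there. In bins of 200 bp, the bin just upstream of the TSS held 5.19% of the pairs of GNC-only genes and 4.88% of those of CGA1-only genes, and no bin within 1 kb of the TSS held over 6% in either group. Coding exons held 22.7% (21.6 to 23.8%) of the GNC-only pairs and 18.9% (17.2 to 20.8%) of the CGA1-only pairs, the one gene part whose intervals did not meet. At genes with both factors these shares were 23.4 and 22.3%.

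**Figure D4:**
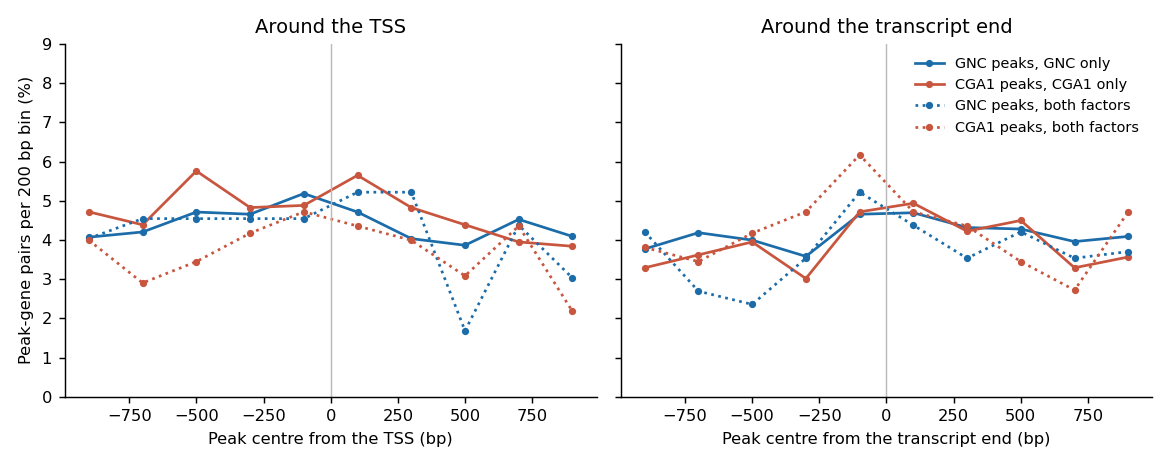
Percent of peak-gene pairs per bin of 200 bp (vertical axis) by the distance of the peak centre from the TSS (left) or the transcript end (right) in bp. Blue lines are GNC, red lines CGA1, solid lines the single-factor genes and dotted lines the genes with both factors. Solid lines stay below 6% in every bin.

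The DNA under the peaks was searched for 6 short words on both strands in windows of 501 bp round the peak centre. A GATA was found in 98.2% of GNC windows at GNC-only genes, 98.3% of CGA1 windows at CGA1-only genes, and 98.6 and 98.3% of GNC and CGA1 windows at genes with both. All consecutive windows of that length on the chromosomes gave 98.0%, and windows centred 250 bp upstream of every TSS gave 98.2%. Since nearly every window of this length holds a GATA, the number per kb says more. It was 8.66 for GNC-only, 9.11 for CGA1-only, 8.87 and 8.77 for the genes with both, 8.72 over all consecutive windows and 8.94 in the upstream windows. The median GC content was 36.5% at GNC-only genes and 35.1% at CGA1-only genes, and 36.5% over all consecutive windows.

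GATC, which reads the same on both strands, was found in 80.9% (79.7 to 82.2%) of GNC-only and 80.3% (78.1 to 82.4%) of CGA1-only windows, against 79.5% of all consecutive windows and 70.9% of the upstream windows. In windows of 201 bp, GATA was found in 81.2% of GNC-only and 83.1% of CGA1-only windows, against 80.6% of all windows of that length. At genes with both factors it was found in 83.8% of the GNC and 77.9% of the CGA1 windows. The overlaps of a GNC with a CGA1 region, 100 in number, held a GATA in 76.0% (66.8 to 83.3%) of such short windows. The core that GATA factors bind was thus about as frequent under either factor's peaks as elsewhere in the genome.

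The remaining words stand for sites of other factor families. CANNTG, the E-box, was found in 84.1% of GNC-only and 82.3% of CGA1-only windows, against 83.8% of all consecutive windows. TGGGCC, a site II element bound by TCP factors, was found in 9.29% (8.40 to 10.3%) of GNC-only and 7.18% (5.91 to 8.68%) of CGA1-only windows, against 7.42% of all and 17.9% of the upstream windows. GGNCCC, which overlaps TGGGCC where a C follows it, was at 11.7 and 11.4%, against 11.7% of all. GAGAGA was found in 39.9% (38.3 to 41.4%) of GNC-only and 42.2% (39.6 to 44.9%) of CGA1-only windows, against 36.8% of all and 35.3% of the upstream windows.

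Function was compared with 35 lists of genes, 12 made from symbols and 23 from searches of gene descriptions. A list was read against 19.3% of all genes with a GNC peak and 8.29% with a CGA1 peak. For GNC the interval of 27 lists held the share of all genes, 6 lay above it and 2 below. For CGA1 it held in 30 lists, with 4 above and 1 below. The searches also catch some genes whose description only mentions a word. Lists overlap in their genes and differ in gene length, and the part of length in these shares was not tested apart from the median given.

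**Figure D5:**
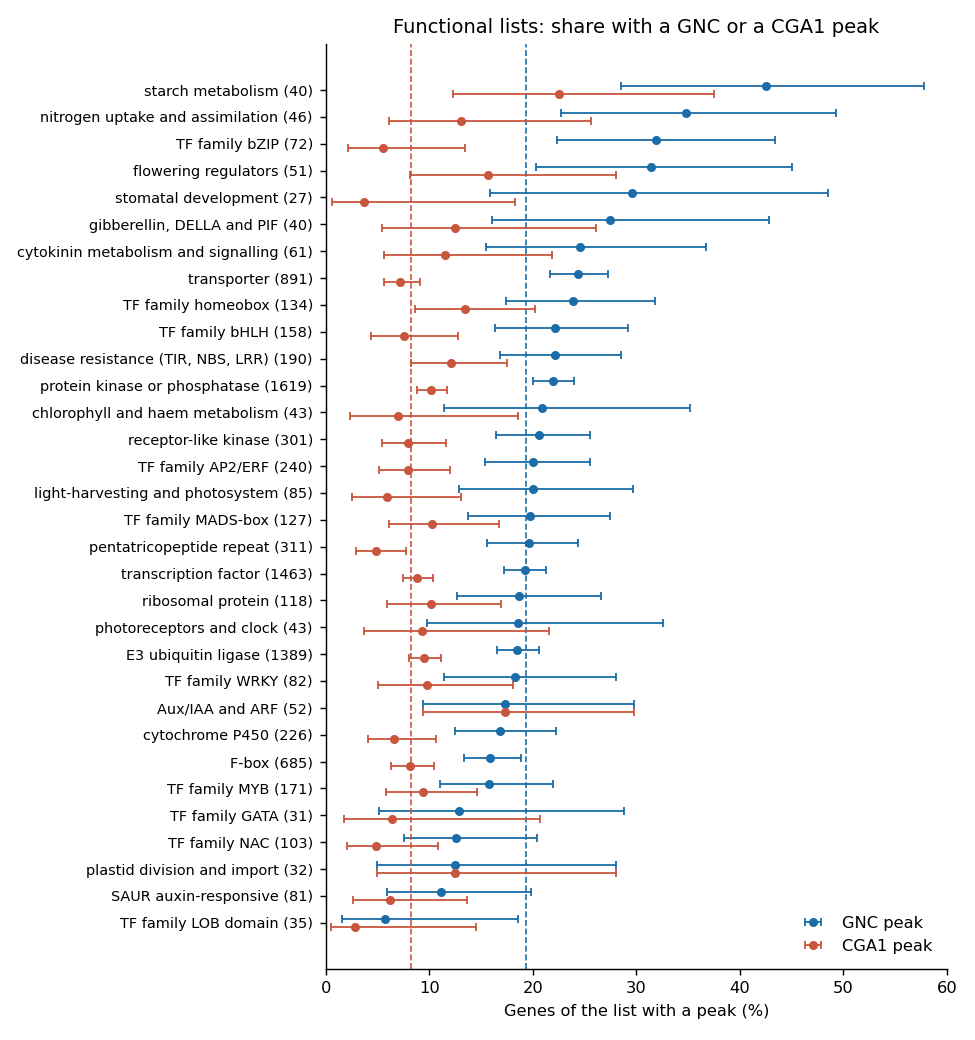
Percent of the genes of a list (horizontal axis) with a GNC peak (blue) or a CGA1 peak (red), for lists of at least 25 genes with the number of genes in brackets. Bars are 95% Wilson intervals and dashed lines the shares over all genes, 19.3% for GNC and 8.29% for CGA1.

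Starch metabolism genes had intervals above the share of all genes for both factors. Of 40 genes, 14 had a GNC peak only, 6 a CGA1 peak only and 3 both, so 42.5% (28.5 to 57.8%) had a GNC and 22.5% (12.3 to 37.5%) a CGA1 peak. Their median length of 3894.5 bp falls in the longest length class, where the shares were 27.4 and 11.8%. With as many GNC as CGA1 regions the GNC share was 17.5%, against 8.44% of all genes. Both factors met APL2, a large subunit of ADP-glucose pyrophosphorylase, with GNC scores of 99.7 and 91.6 and CGA1 scores of 83.8 and 62.6. They also met DPE2, the cytosolic disproportionating enzyme, with 75.4 and 68.7 for GNC and 64.0 and 75.9 for CGA1. In APL2 and DPE2 the peaks overlapped with centres within 139 bp of the TSS. MEX1, the maltose exporter of the chloroplast, scored 85.4 in both GNC lists and 72.4 and 65.2 for CGA1, at separate places. GNC alone met APL3, BAM7, PGM and PHS2, and CGA1 alone BAM4, SBE2.1, AMY3 and SS4. These cover synthesis (PGM, APL3, SBE2.1, SS4) and breakdown (PHS2, AMY3) in either group, with BAM4 and BAM7 being beta-amylase family members.

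Transporter genes were found with GNC above the share of all genes and with CGA1 near it. Of 891 genes found by the search, 193 had a GNC peak only, 40 a CGA1 peak only and 24 both. A GNC peak was thus present at 24.4% (21.7 to 27.3%) and a CGA1 peak at 7.18% (5.67 to 9.07%), so the GNC share lay above that of all genes and the CGA1 interval held it. The median length was 2749 bp, in the fourth length class, where 22.3% of genes had a GNC and 9.38% a CGA1 peak. The GNC interval held the former share and the CGA1 interval lay below the latter. With as many GNC as CGA1 regions the GNC share was 9.54%, against 8.44% of all genes. Pentatricopeptide repeat proteins, which act on organelle RNA, had a GNC peak at 19.6% and a CGA1 peak at 4.82% (2.94 to 7.80%) of 311 genes, with 2 genes in both. Protein kinases and phosphatases had a GNC peak at 21.9% (19.98 to 24.01%) and a CGA1 peak at 10.2% (8.81 to 11.8%) of 1619 genes. Both intervals lay above the shares of all genes, but their median length of 2878 bp falls in the fourth length class, whose shares of 22.3 and 9.38% both intervals held. With as many GNC as CGA1 regions the GNC share of the kinases and phosphatases was 8.71%. F-box genes, with a median of 1394 bp, had a GNC peak at 15.9% (13.4 to 18.8%) and a CGA1 peak at 8.18% of 685 genes.

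Transcription factors as a whole did not stand out. Of 1463 genes, 254 had a GNC peak only, 102 a CGA1 peak only and 27 both, or 19.2 and 8.82%. Within them, bZIP genes had a GNC peak at 31.9% (22.3 to 43.4%) and a CGA1 peak at 5.56% of 72. Homeobox genes had a GNC peak at 23.9% and a CGA1 peak at 13.4% (8.67 to 20.2%) of 134. LOB-domain genes had a GNC peak at 5.71% (1.58 to 18.6%) and a CGA1 peak at 2.86% of 35. Of the GATA family, 31 genes by the search, 4 had a GNC peak only, 2 a CGA1 peak only and none both. These were 12.9% (5.13 to 28.85%) for GNC and 6.45% (1.79 to 20.7%) for CGA1, and both intervals held the shares of all genes. Since both factors met only 1.89% of all genes, a list of 31 is too small to read the absence of shared genes.

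Flowering regulators had a GNC peak at 31.4% (20.3 to 45.0%) and a CGA1 peak at 15.7% (8.17 to 28.0%) of 51 genes, with a median length of 2969 bp. That length falls in the fourth length class, whose shares of 22.3 and 9.38% both intervals held. With as many GNC as CGA1 regions the GNC share was 17.7%. Both factors met SOC1, TEM1, TOE3 and VEL1. SOC1, the MADS-box integrator of flowering signals, had 2 CGA1 peaks. The one described had scores of 220.7 and 210.5 in the 5′ UTR. GNC scored 145.8 and 139.1 past the transcript end, so these peaks lay at opposite ends of the gene. The other CGA1 peak is not placed here. TEM1, a RAV-type repressor of FT, scored 67.2 and 64.2 for GNC and 79.99 and 80.4 for CGA1. TOE3, an AP2-type repressor, scored 69.3 and 115.1 for GNC and 79.99 and 77.5 for CGA1, and VEL1, a relative of the vernalization protein VIN3, scored 52.2 to 59.3 in all lists. GNC alone met FRI, AGL24, FVE and FDP, and CGA1 alone CDF2, MAF1, FUL and SPL5.

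Nitrogen uptake and assimilation genes had a GNC peak at 34.8% (22.7 to 49.2%) and a CGA1 peak at 13.04% (6.12 to 25.7%) of 46. With as many GNC as CGA1 regions the GNC share was 8.70%, near the 8.44% of all genes. NIR1, the nitrite reductase, carried both factors with GNC scores of 85.7 and 65.5 and CGA1 scores of 70.1 and 58.8. GLN1;4, a cytosolic glutamine synthetase, scored 51.0 and 52.8 for GNC and 87.0 and 96.6 for CGA1. ASN3, an asparagine synthetase, scored 123.9 and 137.6 for GNC and 59.8 in both CGA1 lists. It had 2 peaks of each factor, and the cytosolic glutamine synthetase gene just named had 2 CGA1 peaks. In each case 1 of the 2 is described. The nitrate reductase NIA1 and the nitrate transporters NRT2.4 and NRT2.5 had a GNC peak only, as had the ubiquitin ligase ATL31. NLP9, a NIN-like factor, GLN1;3 and NRT2.3 had a CGA1 peak only.

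Cytokinin genes had a GNC peak at 24.6% and a CGA1 peak at 11.5% of 61, with both intervals holding the shares of all genes. The type A response regulator ARR16 scored 67.0 and 71.0 for GNC and 55.7 and 58.6 for CGA1, at opposite ends. CRF2, a cytokinin response factor, had both peaks upstream with GNC scores of 94.0 and 69.5 and CGA1 scores of 62.1 and 62.5, which overlapped by 13 bp, and CKX6 is described above. Of the type B regulators, ARR10 had a GNC peak only, with 122.2 and 133.1 upstream of its TSS, and ARR1 a CGA1 peak only, with 140.6 and 131.8 in a UTR. ARR12, ARR19 and ARR20, also of type B and added after their values were seen, had a GNC peak only. ARR5, ARR6 and CKX7 were met by GNC alone, and ARR8, ARR17 and LOG1 by CGA1 alone.

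For gibberellin, DELLA and PIF genes the shares were 27.5 and 12.5% of 40. KAO1, the kaurenoic acid oxidase, scored 54.8 in both GNC lists and 62.6 and 76.5 for CGA1. The biosynthetic oxidase GA20OX5 scored 77.8 and 71.7 for GNC and 60.7 and 61.7 for CGA1, and the catabolic oxidase GA2OX6 scored 52.0 and 55.0 for GNC and 64.8 and 71.5 for CGA1. All of these had separate peaks. PIF7, PIL1, UNE10 and GA3OX1 had a GNC peak only, and the DELLA gene GAI and PIF1 a CGA1 peak only.

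Of 52 Aux/IAA and ARF genes, 7 were met by CGA1 only, 7 by GNC only and 2 by both. Each factor thus met 17.3% (9.38 to 29.7%), which for GNC held the share of all genes and for CGA1 lay above it. Their median length of 2593.5 bp falls in the fourth length class. There 9.38% of genes had a CGA1 peak, which is at the lower bound of that interval. The auxin response factor ARF10 scored 91.6 and 73.9 for GNC and 53.2 and 53.5 for CGA1, and ARF9 scored 51.8 in both GNC lists and 58.2 and 51.9 for CGA1. The repressors IAA27 and IAA17 and the response factors ETT and NPH4 had a GNC peak only. IAA26, ARF1, IAA34 and IAA6 had a CGA1 peak only.

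Genes of chlorophyll and haem metabolism had a GNC peak at 20.9% and a CGA1 peak at 6.98% of 43, both near the shares of all genes. Subunits of magnesium chelatase, which commits porphyrin to chlorophyll, were among those with a CGA1 peak. CHLD had both factors. Of its 2 GNC peaks, the one described lay at the upstream edge, with scores of 71.2 and 73.3. The other is not placed here. The CGA1 peak of CHLD scored 73.7 and 64.6 in the 3′ UTR. GUN5, the H subunit, was met by CGA1 only, with 2 peaks, and the one described scored 73.4 and 73.7 in a coding exon. CHLI2 had a CGA1 peak only, with 77.0 and 64.7 in its 5′ UTR. GNC alone met HEMC and CHLM, which act before and after the chelatase, and PAO and NYE2 of chlorophyll breakdown. Light-harvesting and photosystem genes gave 20% for GNC and 5.88% for CGA1 of 85, with both factors at PSAK and DEG8.

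Of 27 stomatal development genes, 8 had a GNC peak (29.6%, 15.9 to 48.5%) and 1 a CGA1 peak (3.70%, 0.657 to 18.3%), and both intervals held the shares of all genes. YDA, EPFL5, SDD1 and ERL1 had GNC peaks, and SPCH, the bHLH factor that starts the stomatal lineage, a CGA1 peak with scores of 81.9 and 69.4 at 127 bp upstream of its TSS. Among photoreceptor and clock genes, 7 of 43 had GNC only, PHYB and PRR3 with the highest scores, 3 had CGA1 only (RVE2, LHY and SPA1), and the blue-light F-box gene FKF1 had both. Any GNC peak was present at 18.6% (9.74 to 32.6%) and any CGA1 peak at 9.30% (3.68 to 21.6%) of these photoreceptor and clock genes. Plastid division and import genes had GNC only at 4 and CGA1 only at 4 of 32, or 12.5% (4.97 to 28.1%) for each factor. In both lists the intervals held the shares of all genes.

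The genes of the factors themselves were read last. CGA1 had a GNC peak in a coding exon, 502 bp from its TSS, with scores of 74.9 and 82.0. It had no CGA1 peak in both lists, and GNC had neither. By ChIP-qPCR, the study reports GNC bound at the promoter of CGA1, and CGA1 bound at the promoter of GNC. Neither was met here by a peak in both lists within 1 kb upstream of the TSS. The lack of such a peak does not show that these promoters are unbound. Of the other B-class members, GATA17 had a CGA1 peak past its transcript end with scores of 121.7 and 132.8, and GATA23 one upstream with 64.4 and 67.4. The tag itself cannot be checked in peak lists. Of further genes the study names, PTAC7, LHCB5, CPSUFE, TCP13 and SWEET16 had a GNC peak only, and SPCH, CLB6, SAUR14, SAUR15 and ERD6 a CGA1 peak only. SOC1, CRF2 and SAUR70 had both, and CHL-CPN10 and LHCB1.4 neither by the window and the demand for both lists used here. These calls differ from the study, which names LHCB1.4 as a GNC-specific target and CHL-CPN10 as bound by CGA1 only. It detected SAUR70 with CGA1 only. The study's window, from 1 kb upstream to 100 bp past the TSS, lies within the one used here. The GNC peak found here at SAUR70 lay in the 3′ UTR, 1821 bp past the TSS and outside the study's window. The study kept genes found in both replicates, whereas here the peaks of both lists had to overlap. The source of the other differences was not tested.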

How the data were processed

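ChIP-seq of myc-tagged GNC and CGA1 overexpression lines was analysed from 4 peak lists, 2 for each line. Per the labels and the study's methods, the authors aligned trimmed reads to the TAIR10 genome using Bowtie2 2.2.6, dropped reads with more than a single match and called peaks with MACS for each IP. The deposited score is a −log10 value multiplied by 10, of the p-value of IP against INPUT, with no further normalization. The labels of the CGA1 INPUT samples name GNC peak lists, so which INPUT served which list is not known from them.

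Regions were joined from peaks that overlapped between the lists of a line, and 1 was added to each bed start so that coordinates are 1-based. Genes came from TAIR10.1, and every peak lay within its chromosome lengths. Python 3.11.15 with numpy 2.4.6 and scipy 1.17.1 was used. Intervals of shares are 95% Wilson intervals and those of medians are distribution-free. Peak assignment was tested on simulated data. Chloroplast peaks were left out.

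The gene groups and lists were chosen with earlier results of these data known. Named genes were the first 10 with a symbol among genes with overlapping peaks, by the lower mean score, the 10 of each single-factor group by the lower list score, all symbol-list genes with both factors with up to 4 examples of each other group, and genes the study names. After the values were seen, symbol-list members matched to a gene of another function that shares the symbol were corrected, and genes that only mention the family were dropped from the bZIP, homeobox and GATA searches. Alternatives were other windows, overlap rules, score limits, equal peak numbers, 1 gene per peak and single lists. No test was run.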

Additional observations from a re-analysis of the deposited data

Results flagged for a closer look

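The GNC lists each held a peak on the chloroplast genome, which no comparison used. Its score was 147.3 in replicate 1 and 344.9 in replicate 2, over the same 4099 bp, and the CGA1 lists held none there.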

How the results depend on the processing

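No paired analysis was possible because the results come from no test. Of 75 alternative values outside the word searches, 45 stayed within 1.5 times the count or within the interval of the share or median. With the transcript alone, GNC only, CGA1 only and both factors counted 2963, 1131 and 200 genes, with medians of 2620, 2637 and 3205 bp, and 15.0% of CGA1 genes had a GNC peak. With the promoter window, from 1 kb upstream to 100 bp past the TSS, they counted 1878, 765 and 74 genes, with medians of 2174.5, 2089 and 2461.5 bp, and the share was 8.82%. The order of the GNC-only and CGA1-only medians turned with the transcript alone. With a score of at least 100 in both lists the counts were 597, 160 and 7, the GNC-only and both-factor medians 2510 and 3028 bp and the share 4.19%. With as many GNC as CGA1 regions, GNC only and both counted 2093 and 223 and the share was 9.80%. With 1 gene per peak, both factors counted 294 and the share was 18.1%. Among genes without a CGA1 peak, 11.35% had a GNC peak with the transcript alone and 7.06% with the promoter window. Their share was 2.19% with a score of at least 100, 8.32% with equal region numbers and 13.4% with 1 gene per peak. In single lists both factors counted 763 to 794 genes, and the share was 26.8 to 27.1%, against 22.6% of genes without a CGA1 peak. By the nearest peak edge, 40.4% of GNC and 42.4% of CGA1 regions lay upstream. Of 48 word shares, 43 moved with the window, whose length sets them. Read depth, which was not used here, and 1 sample a line limit every comparison.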
